A study of Saccharomyces cerevisiae with 24 samples.

Results

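The 33 genes described here encode subunits of the yeast proteasome, its transcriptional activator and polyubiquitin. They were chosen by name from the 6205 open reading frames of the table, with earlier results of these data known. They are 7 genes of the 20S alpha ring, 7 of the 20S beta ring, 6 ATPases and 11 non-ATPase subunits of the 19S cap, RPN4 and UBI4. All 33 had a value on every array and all were tested. Total RNA of 4 yeast strains was compared with that of a strain carrying DOT4-6Myc, on 24 arrays with 2 dyes. The cells had grown in YEPD, which is rich medium with glucose. DOT4 is the gene named UBP10 (YNL186W) in the reference annotation and encodes a deubiquitinase of histone H2B. The strain UCC6435 is labelled a dot4 null, UCC6406 carries dot4-1 with the 6Myc tag, UCC6407 carries dot4-5 with the same tag, and in UCC6432 DOT4 is untagged. All 4 were hybridised against UCC6408, the strain with DOT4-6Myc, so that the strain labelled null and untagged DOT4 differ from their comparator by the tag too. The sources used here do not give the protein changes of dot4-1 and dot4-5 or further strain markers. A strain has 6 arrays, which form 3 numbered sets of 2 arrays with exchanged dyes.

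The proteasome degrades proteins that carry chains of ubiquitin. Its 20S core is a barrel of alpha and beta rings with the proteolytic sites on beta subunits, and its 19S cap binds ubiquitin chains, removes them, and unfolds the substrate with a ring of ATPases. In budding yeast most of these genes share the activator Rpn4, which is itself a short-lived substrate of the proteasome, so that impaired proteolysis raises Rpn4 and with it the subunit genes. UBI4 encodes a head-to-tail chain of ubiquitin units and is known for its induction under stress. UBI4 shares ubiquitin repeats with RPL40A, RPL40B and RPS31, and signal from these genes on a UBI4 spot cannot be told apart from its own.

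All values below are log2 ratios, strain over DOT4-6Myc, averaged over the 2 dye orientations of a set, and a mean is over 3 sets. A gene is called where limma's adjusted p was under 0.05. The direction is the likely one: in the order of the labels UBP10 was higher in UCC6435 on each of its 6 arrays, so all arrays were turned, and under the order of the labels every sign below is exchanged while the counts stay. In the turned direction UBP10 was -4.48, -4.48 and -5.11 in the 3 sets of the strain labelled null, a mean of -4.69 ± 0.37 (SD, n = 3, as for every ± below). How much of the remaining signal is spot background is not known, so only the sign of this value was used. Its means were -0.62 in dot4-1 (adjusted p = 7.61e-05), -0.24 in dot4-5 (adjusted p = 0.817) and -0.17 in untagged DOT4 (adjusted p = 0.202). Of these, it was called in dot4-1 alone. Set 1 stood apart in the strain labelled null, where it correlated with sets 2 and 3 over all genes at 0.773 and 0.752 while these correlated at 0.950. The same held less widely in dot4-1, with 0.876 and 0.892 against 0.963. Correlations between sets were 0.524 to 0.616 in dot4-5 and 0.662 to 0.777 in untagged DOT4. Precision is limited by how few arrays there are. Nothing says that the sets are separate cultures, so the p-values reflect set-to-set spread that may be technical. That spread is 1 value per gene drawn from all 4 strains, not the SD printed beside a mean. RPT1, for example, has an SE of 0.092 in each strain, with an SD of 0.017 in dot4-5 and 0.28 in dot4-1. In bulk RNA, a change in every cell and a larger change in some of the cells cannot be told apart.

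Of the 33 genes, 14 (42.4%) were called in the strain labelled null against DOT4-6Myc, 7 of them higher and 7 lower, against 63.4% of all genes tested. Changes were small: the median size was 0.080 for these genes and 0.169 for all genes. Calls ran both ways in each ring of the core and within the cap. Among the 14 genes of the core 2 were higher and 4 lower, and among the 17 of the cap 5 were higher and 2 lower. Of all genes tested, 30.7% were called higher and 32.7% lower. Of the 14 called genes, 13 had the same sign in all 3 sets. The exception was RPN5.

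**Figure D1:**
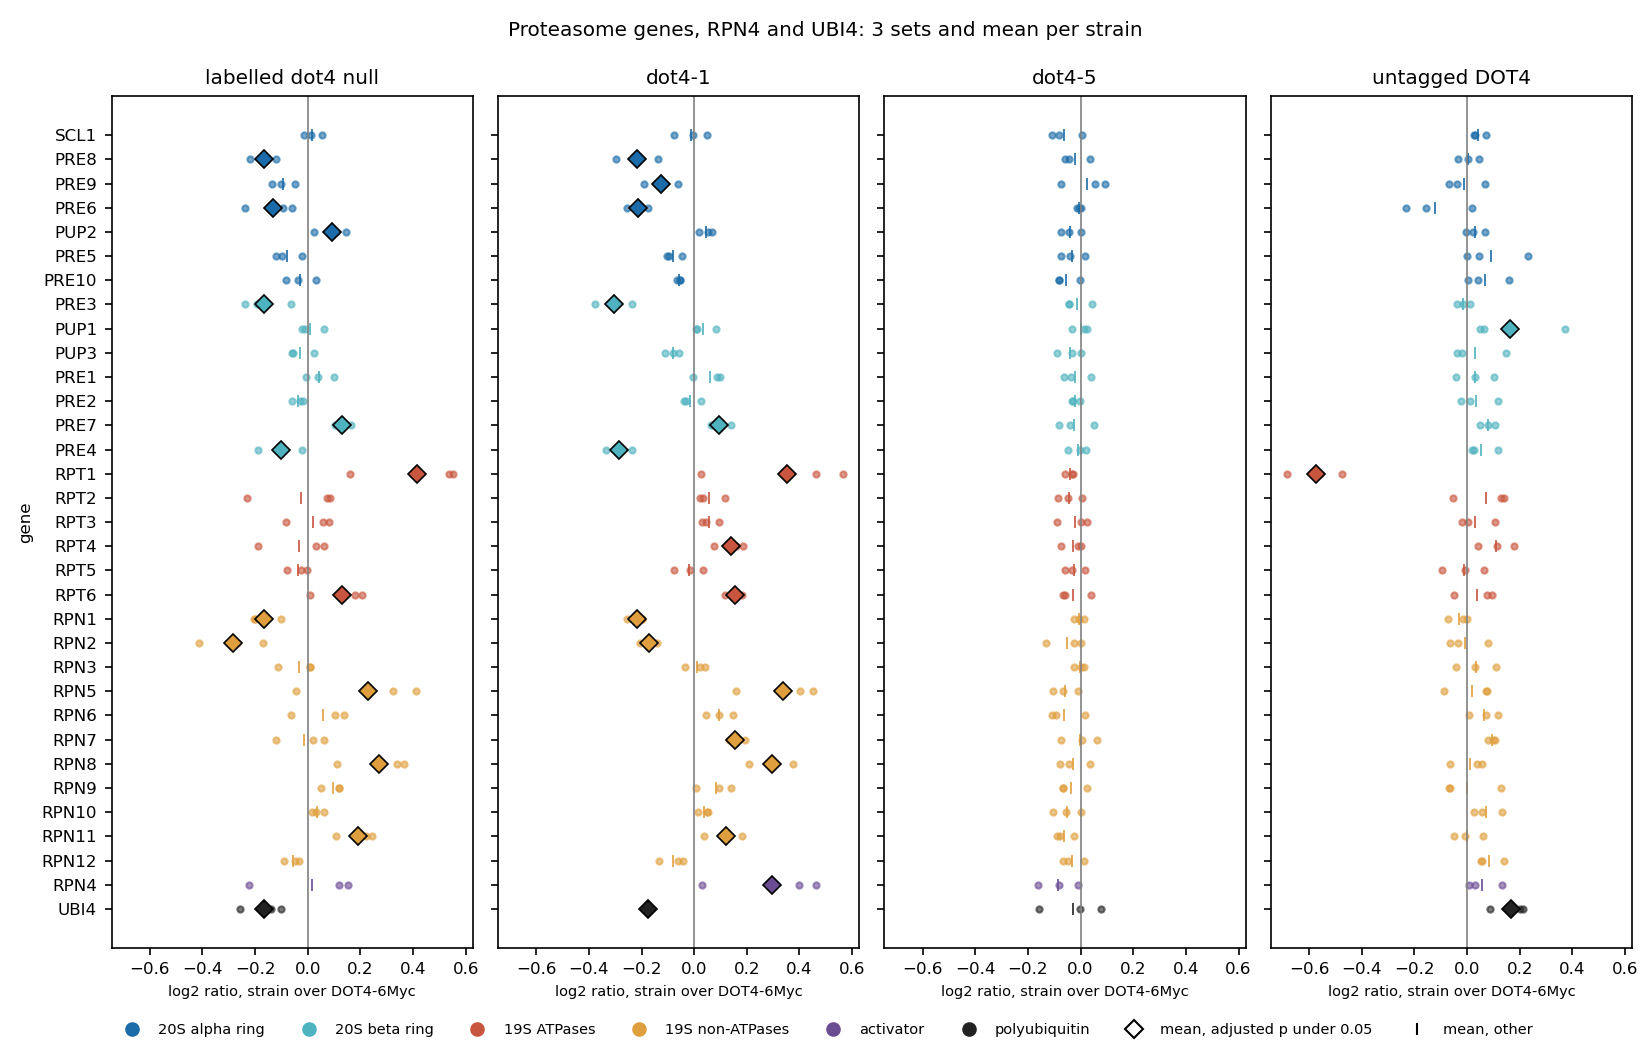
The log2 ratio (strain over DOT4-6Myc, x axis) of each of the 33 genes (y axis, coloured by group) in the 4 strains. Dots are the 3 sets, diamonds are means with an adjusted p under 0.05 and ticks are other means; 14, 17, 0 and 3 genes were called in the strain labelled null, dot4-1, dot4-5 and untagged DOT4, and RPT1 lies farthest from 0 in the first, second and last panels.

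In the alpha ring of the strain labelled null, PRE8 (YML092C) was -0.12, -0.15 and -0.22 in sets 1, 2 and 3, a mean of -0.16 ± 0.050 (SD; adjusted p = 0.00234). PUP2 (YGR253C) was the highest of the ring, at 0.022, 0.11 and 0.15, a mean of 0.09 ± 0.063 (adjusted p = 0.0303). The mean of PUP2 was 0.19 over the arrays with the strain in Cy3 and -0.010 over those with it in Cy5. PRE6 (YOL038W) was also lower, at -0.13, but -0.037 with the strain in Cy3, where it was not called. These genes encode structural subunits of the ring that gates the channel. SCL1 (YGL011C), PRE9 (YGR135W), PRE5 (YMR314W) and PRE10 (YOR362C), of the same ring, had means from -0.10 to 0.016 and were not called. PRE9, the only core subunit that yeast can do without, stood at -0.10 with an adjusted p of 0.0658.

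In the beta ring, PRE3 (YJL001W), which carries the caspase-like site, was -0.064, -0.19 and -0.24, a mean of -0.17 ± 0.092 (adjusted p = 0.00343). PRE7 (YBL041W), a subunit without a proteolytic site, was 0.10, 0.13 and 0.16, a mean of 0.13 ± 0.031 (adjusted p = 0.00521), with 0.026 on the arrays with the strain in Cy5. PRE4 (YFR050C) was -0.10, and -0.019 with the strain in Cy3, where it was not called. The subunits with the other proteolytic sites were not called: PUP1 (YOR157C), the trypsin-like one, had a mean of 0.0088, and PRE2 (YPR103W), the chymotrypsin-like one, a mean of -0.036. PUP3 (YER094C) and PRE1 (YER012W), which have no proteolytic site, had means of -0.030 and 0.045.

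Of the ATPases, RPT1 (YKL145W) was 0.16, 0.55 and 0.54 in the strain labelled null, a mean of 0.42 ± 0.22 (SE 0.092; adjusted p = 0.00182), or 1.33-fold higher. Sets 2 and 3 were alike and set 1 was low but above 0. Without set 1 the mean was 0.54. RPT6 (YGL048C) was called higher at 0.13, with 0.010 in set 1 and 0.18 and 0.21 in sets 2 and 3. The lowest ATPase gene, RPT5 (YOR117W), was -0.080, -0.026 and -0.0023, a mean of -0.036 ± 0.040. RPT2 (YDL007W), RPT3 (YDR394W) and RPT4 (YOR259C) had means between -0.032 and 0.018 and were below 0 in set 1 and above it in sets 2 and 3.

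The non-ATPase subunits held the lowest value and several of the highest. RPN2 (YIL075C), a large scaffold of the base of the cap, was -0.41, -0.17 and -0.27, a mean of -0.28 ± 0.12 (adjusted p = 0.000221). RPN1 (YHR027C), the other large scaffold, to which shuttle receptors and UBP6 bind, was -0.17, and -0.039 with the strain in Cy3, where it was not called. RPN8 (YOR261C) was 0.11, 0.34 and 0.36, a mean of 0.27 ± 0.14 (adjusted p = 0.00059), and its partner RPN11 (YFR004W), the deubiquitinase of the lid, was 0.11, 0.22 and 0.25, a mean of 0.19 ± 0.073 (adjusted p = 0.0011). All sets of both genes were above 0. RPN5 (YDL147W), a lid subunit, was -0.046, 0.33 and 0.41, a mean of 0.23 ± 0.24 (adjusted p = 0.0202), so that set 1 lay on the other side of 0. Its call was lost without set 2 (0.18) or set 3 (0.14), and the mean was 0.37 without set 1. The remaining lid subunits RPN3 (YER021W), RPN6 (YDL097C), RPN7 (YPR108W), RPN9 (YDR427W) and RPN12 (YFR052W), and the ubiquitin receptor RPN10 (YHR200W), had means from -0.056 to 0.10 and were not called.

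RPN4 (YDL020C), the activator, was -0.22, 0.15 and 0.12 in the strain labelled null, a mean of 0.016 ± 0.21 (adjusted p = 0.868), with set 1 apart from the others. Without set 1 the mean was 0.14 (adjusted p = 0.161). UBI4 (YLL039C) was -0.14, -0.10 and -0.26, a mean of -0.17 ± 0.082 (adjusted p = 0.00777), below 0 in each set, and on the arrays with the strain in Cy3 it was -0.013. The count of called genes was 15 without set 1, 9 without set 2 and 8 without set 3, 8 without centring (6 higher and 2 lower), 7 with arrays scaled to equal spread and 4 in a fit of this strain alone. These counts are not set against the share of all genes called under the same settings, which is not given here. It split into 3 higher and 9 lower with the strain in Cy5, and 10 higher and 2 lower with it in Cy3. RPT1, RPN2, RPN8 and RPN11 were called under each of the 12 alternatives.

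In dot4-1, 17 of the 33 genes (51.5%) were called, 9 higher and 8 lower, against 73.4% of all genes tested. Of 14 core genes 1 was higher and 5 lower (42.9% called), and of 17 cap genes 7 were higher and 2 lower (52.9% called). Of all genes tested, 35.9% were called higher and 37.5% lower. The 5 lower of 14 and the 7 higher of 17 lay near these shares, and calls the other way were fewer. The contrast between core and cap is a description and was not tested, and the split of calls among the 33 genes shifted with the dye. The median was 0.034 for these genes, with a median size of 0.10, and -0.0063 for all genes, with a median size of 0.223. All 17 called genes had the same sign in the 3 sets.

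In the alpha ring of dot4-1, PRE8 was -0.14, -0.22 and -0.30, a mean of -0.22 ± 0.079 (adjusted p = 0.000228). PRE6 was lower at -0.21 and PRE9 at -0.13. PUP2, the highest of the ring, was 0.019, 0.053 and 0.068 and was not called (mean 0.05, adjusted p = 0.227). In the beta ring, PRE3 was -0.24, -0.38 and -0.30, a mean of -0.30 ± 0.071 (adjusted p = 2.68e-05). PRE4 was -0.24, -0.28 and -0.34, a mean of -0.29 ± 0.049 (adjusted p = 2.92e-05). These were the lowest adjusted p-values of the 33 genes in any strain against DOT4-6Myc. PRE7 was 0.065, 0.073 and 0.14, a mean of 0.09 ± 0.042 (adjusted p = 0.0269), but -0.053 on the arrays with the strain in Cy5.

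Of the ATPases in dot4-1, RPT1 was 0.028, 0.46 and 0.56, a mean of 0.35 ± 0.28 (adjusted p = 0.00427). Set 1 was close to 0 and the others were far above it. The mean was 0.51 without set 1, 0.24 (adjusted p = 0.0586) without set 3, and 0.21 with arrays scaled to a common spread. RPT4, which was -0.032 in the strain labelled null, was called higher at 0.14, and RPT6 at 0.15. RPT5, the lowest, was -0.076, 0.032 and -0.016, a mean of -0.020 ± 0.054.

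Of the other cap subunits in dot4-1, RPN5 was 0.16, 0.45 and 0.40, a mean of 0.34 ± 0.16 (adjusted p = 0.0017), above 0 in each set. RPN8 was 0.21, 0.38 and 0.30, a mean of 0.30 ± 0.085 (adjusted p = 0.000217). RPN7 at 0.16 and RPN11 at 0.12 were also called higher. The scaffolds were lower: RPN1, the lowest, was -0.20, -0.20 and -0.25, a mean of -0.22 ± 0.032 (adjusted p = 7.12e-05), and RPN2 was -0.17.

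RPN4 in dot4-1 was 0.028, 0.40 and 0.46, a mean of 0.30 ± 0.23 (SE 0.082; adjusted p = 0.00573), or 1.23-fold higher. Sets 2 and 3 were high and set 1 was near 0, as for RPT1. Its call was lost without set 2 (0.24, adjusted p = 0.0505), without set 3 (0.21, adjusted p = 0.0689) and with scaled arrays (0.17, adjusted p = 0.0539), and the mean was 0.43 without set 1. UBI4 was -0.17, -0.17 and -0.19, a mean of -0.18 ± 0.012 (adjusted p = 0.00422), with a narrow spread and all 6 arrays below 0. It was -0.10 with scaled arrays and with the strain in Cy3, and was not called there. With scaled arrays 8 of the 33 genes were called. The split was 7 higher and 10 lower with the strain in Cy5, and 12 higher and 6 lower with it in Cy3. These counts have no share of all genes under the same settings beside them.

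**Figure D2:**
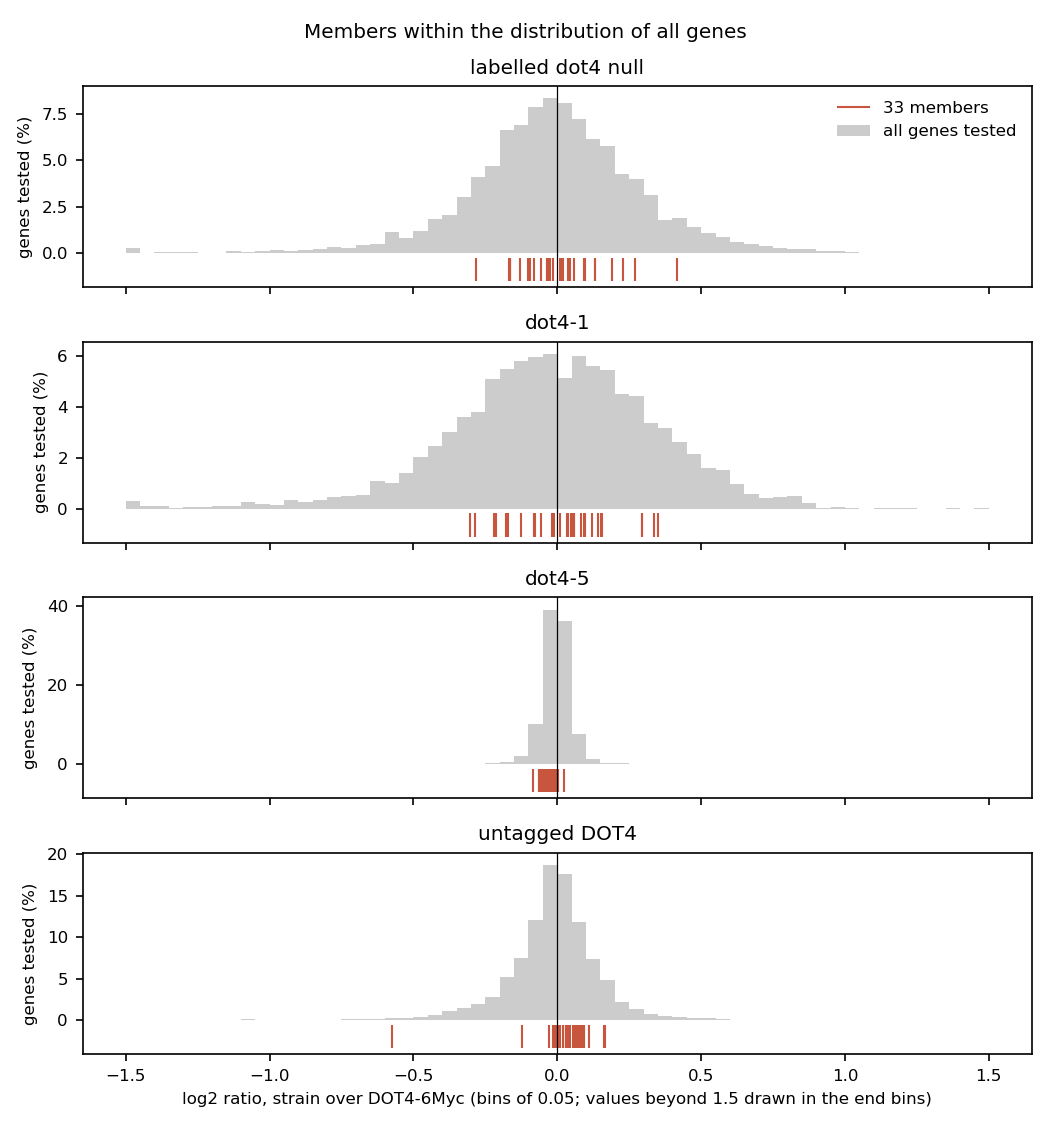
Distribution of the mean log2 ratio (x axis) over the 6195 genes tested (grey, percent of genes per bin of 0.05 on the y axis) in the 4 strains, with the 33 genes as red lines below. Most red lines lie near the centre of the grey distribution, with RPT1 in the lower tail at -0.57 in untagged DOT4. They run from -0.28 to 0.42 in the strain labelled null, from -0.30 to 0.35 in dot4-1, from -0.085 to 0.024 in dot4-5 and from -0.57 to 0.17 in untagged DOT4.

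In dot4-5, 0 of the 33 genes were called by limma, against 1.03% of all genes tested. An unadjusted p under 0.05 was found for 0 of the 33, against 269 of the 6195 genes tested. All means lay between -0.085 (RPN4) and 0.024 (PRE9), with a median of -0.028 against -0.0028 for all genes. Means were below 0 for 31 genes and above it for 2, against 3273 and 2919 of the 6195 genes tested. The genes share arrays and comparator, so these signs are not separate observations. The 95% intervals of the means spanned -0.26 to 0.16 over all 33 genes.

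The alpha ring of dot4-5 ran between PRE9, with -0.076, 0.094 and 0.055, and SCL1, with 0.0055, -0.081 and -0.11. PUP1 was the highest gene of the beta ring, at 0.026, -0.034 and 0.012. PUP3 was the lowest, at 0.0025, -0.090 and -0.033. Signs differed between the sets of each of these 4 genes. Among the ATPases RPT3 was the highest, at 0.024, 0.0025 and -0.092, and RPT2 the lowest, at 0.0040, -0.046 and -0.085. RPT1, the gene farthest from 0 in the other strains, was -0.030, -0.060 and -0.031. The other cap subunits ran between RPN7, with 0.062, 0.0060 and -0.076, and RPN11, with -0.025, -0.080 and -0.088. RPT1 and RPN11 were below 0 in each set, by less than 0.1. RPN4 was -0.010, -0.082 and -0.16, a mean of -0.08 ± 0.076, and UBI4 was -0.0020, 0.077 and -0.16, a mean of -0.028 ± 0.12. With the strain in Cy5 alone 1 gene, SCL1, was called lower, and in the other 11 alternatives 0 were. How many of all genes were called under these settings is not given here.

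In untagged DOT4, 3 of the 33 genes (9.09%) were called, 2 higher and 1 lower, against 25.8% of all genes tested. This strain differs from its comparator by the tag, per the labels. RPT1 was lower and PUP1 and UBI4 were higher. The median was 0.033, against -0.0053 for all genes, and the median size was 0.040, against 0.076.

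RPT1 was -0.48, -0.68 and -0.56 in untagged DOT4, a mean of -0.57 ± 0.10 (SE 0.092; adjusted p = 0.000918), or 1.49-fold lower. The 6 arrays lay between -0.70 and -0.47, so that sets and dyes gave the same direction, and RPT1 was called under each of the 12 alternatives. The highest of the ATPases was RPT4, at 0.11, 0.18 and 0.042, a mean of 0.11 ± 0.068 (adjusted p = 0.108). RPT1 lies between AVT3 and RPC25 in the reference annotation. AVT3, a vacuolar transporter gene, had -0.15, -0.15, -0.054 and 0.021 in the strain labelled null, dot4-1, dot4-5 and untagged DOT4. RPC25, a subunit gene of RNA polymerase III, had 0.36, 0.38, 0.014 and -0.11. Both neighbours were called in the strain labelled null and in dot4-1, and neither in untagged DOT4. The next genes out were called in all 3 of these strains: SDH1 had -0.34, -0.28, 0.074 and 0.41 in the 4 strains, in the same order, and LTV1 had 0.62, 0.75, -0.026 and -0.32.

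PUP1 was 0.37, 0.064 and 0.048 in untagged DOT4, a mean of 0.16 ± 0.18 (adjusted p = 0.0421). Set 1 was far above the others, and without it the mean was 0.056 (adjusted p = 0.378). The lowest beta gene was PRE3, at 0.012, -0.016 and -0.038. UBI4 was 0.088, 0.20 and 0.21, a mean of 0.17 ± 0.069 (adjusted p = 0.0194), above 0 in each set. Its call was lost without set 2 (0.15) or set 3 (0.14), without centring (0.088) and with the strain in Cy5 (0.10).

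RPN4 was 0.13, 0.030 and 0.0090 in untagged DOT4, a mean of 0.06 ± 0.066 (adjusted p = 0.676), which was -0.021 without centring. In the alpha ring, PRE5 was 0.23, 0.046 and -0.0020 and PRE6 was 0.018, -0.23 and -0.15, and neither was called. Among the other cap subunits, RPN7 was 0.11, 0.098 and 0.078, all above 0 but not called (adjusted p = 0.102), and RPN1 was -0.0015, -0.071 and -0.014. The count was 6 with scaled arrays (4 higher, 2 lower), 6 with the strain in Cy3 (5 higher, 1 lower), 7 with separate arrays (6 higher, 1 lower) and 2 without centring, where PRE6 and RPT1 were lower. Shares of all genes under these settings are not given, so the changes are not read as particular to these genes.

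**Figure D3:**
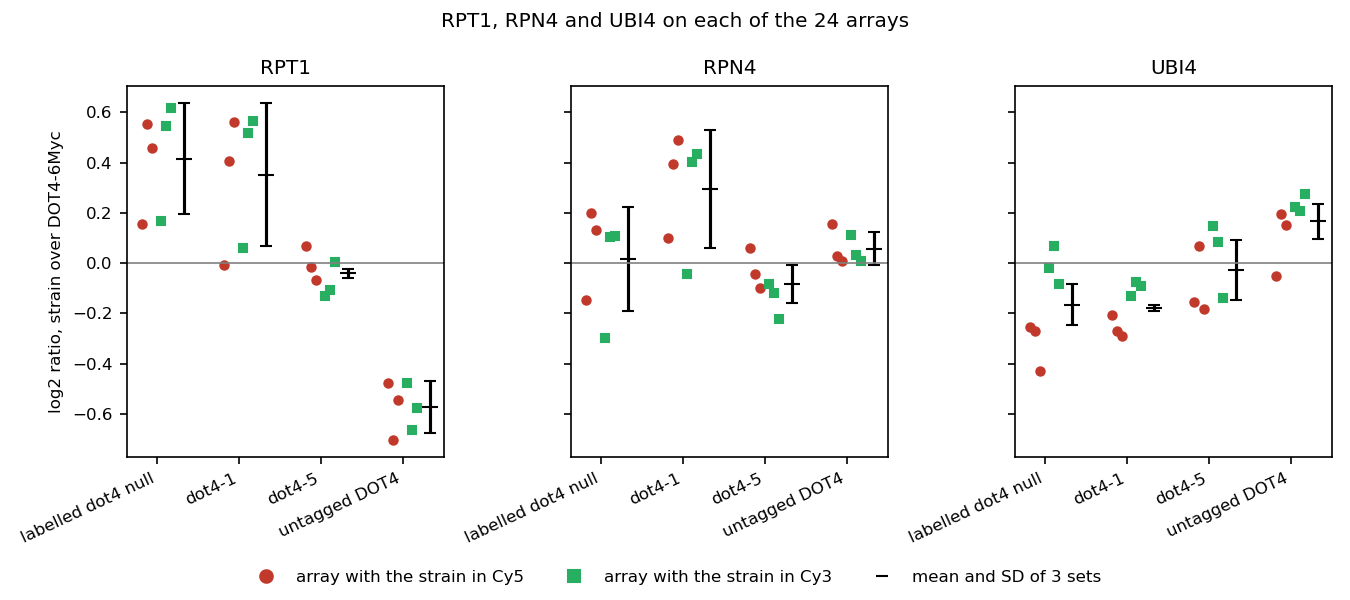
RPT1, RPN4 and UBI4 on each of the 24 arrays: the centred log2 ratio (y axis) by strain (x axis), with circles for arrays with the strain in Cy5, squares for those with it in Cy3, and bars for the mean and SD of 3 sets. RPT1 is above 0 on 6 of 6 arrays of the strain labelled null and below 0 on 6 of 6 of untagged DOT4, while the UBI4 arrays of the strain labelled null and of dot4-1 separate by dye.

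Across the 4 strains, the order of RPT1 was the strain labelled null (0.42), dot4-1 (0.35), dot4-5 (-0.04) and untagged DOT4 (-0.57). The first and second did not differ beyond their spread (difference 0.06, 95% interval -0.22 to 0.35). On single arrays RPT1 was above 0 on 5 of 6 in dot4-1, with its lowest at -0.0070, and on 2 of 6 in dot4-5. RPN4 was highest in dot4-1 (0.30), then untagged DOT4 (0.06), the strain labelled null (0.016) and dot4-5 (-0.08). It was above 0 on 5 arrays in dot4-1, 6 in untagged DOT4, 4 in the strain labelled null and 1 in dot4-5. UBI4 was above 0 in untagged DOT4 (0.17), near 0 in dot4-5 (-0.028), and below it in the strain labelled null (-0.17) and dot4-1 (-0.18). Over the 12 set means the 33 genes correlated with each other in pairs at -0.909 to 0.956 with a median of 0.299 (528 pairs), as a description of points that share arrays and comparator.

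The differences between strains were fitted through the shared DOT4-6Myc RNA. In dot4-1 minus dot4-5, the 2 tagged alleles, 15 genes (45.5%) were called, 9 higher and 6 lower, against 61% of all genes tested. RPN5 differed by 0.40 (SE 0.11; adjusted p = 0.00748), with 0.34 in dot4-1 and -0.06 in dot4-5. RPT1 differed by 0.39 (adjusted p = 0.0208) and RPN4 by 0.38 (adjusted p = 0.0129), with 0.30 in dot4-1 and -0.08 in dot4-5. RPN8 differed by 0.32 (adjusted p = 0.00219). The subunits with the lowest differences were PRE3 at -0.29 (adjusted p = 0.00101) and PRE4 at -0.28 (adjusted p = 0.000991). The 14 core genes held 5 lower and 0 higher calls, where 31.4% of all genes tested were lower and 29.6% higher. The 5 lower of 14 lay near the share of all genes, and the split was not tested. RPN5 and RPN8 were called under each of the 15 alternatives. RPN4 was not called without dot4-1 set 2 (0.33) or set 3 (0.30). RPT1 was not called without dot4-1 set 2 (0.34) or set 3 (0.28), without dot4-5 set 2 (0.38) or with the strains in Cy5 (0.33). The count was 7 without dot4-1 set 2, 8 without its set 3, 9 without dot4-5 set 2, 7 without centring, and 5 with scaled arrays, all higher. The share of all genes called under these settings is not given here, so the changed counts are not read as particular to these genes.

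The strain labelled null and untagged DOT4 were compared through the DOT4-6Myc RNA too. In null minus untagged, 11 genes (33.3%) were called, 3 higher and 8 lower, against 54.9% of all genes tested. RPT1 differed by 0.99 (SE 0.13, 95% interval 0.71 to 1.27; adjusted p = 4.43e-05), a 1.98-fold difference between 0.42 in the strain labelled null and -0.57 in untagged DOT4. It was 0.92 to 1.12 over 15 alternatives. UBI4 differed by -0.33 (adjusted p = 0.000986), with -0.17 in the strain labelled null and 0.17 in untagged DOT4, and RPN2 by -0.28 (adjusted p = 0.00358). RPN8 at 0.26 and RPN11 at 0.19 were higher, and PRE8, PRE5, PRE3, PRE4, RPN1 and RPN12 were lower, with differences of -0.17 to -0.14. RPT1 and UBI4 were called under each of the 15 alternatives with the arrays turned together. The count was 7 without null set 2, 7 without untagged set 1, 5 without centring (4 higher, 1 lower), 3 with scaled arrays, 4 with the strains in Cy3 (2 higher, 2 lower) and 6 with these strains alone (3 higher, 3 lower). If the signs of the null arrays alone were exchanged, 9 were called and 0 were among the 11. None of these counts is set against the share of all genes called under the same setting.

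In null minus dot4-1, 0 of the 33 genes were called by limma, against 9.81% of all genes tested. An unadjusted p under 0.05 was found for 5 of the 33, against 1863 of the 6195 genes tested. The nearest was PRE4, with -0.10 in the strain labelled null and -0.29 in dot4-1, a difference of 0.19 (95% interval 0.07 to 0.30; adjusted p = 0.051). RPN4 had 0.016 in the strain labelled null and 0.30 in dot4-1, a difference of -0.28 (95% interval -0.53 to -0.030; adjusted p = 0.132). Same-numbered sets of these strains deviated together (0.671, 0.509 and 0.317). Set 3 of the strain labelled null correlated higher with another dot4-1 set (0.452) than with its own number. Within numbers the RPN4 difference was -0.25, -0.25 and -0.34. With these strains alone and the number as a replicate block, a fit added after seeing the data, RPN4 (adjusted p = 0.0158) and PRE4 (adjusted p = 0.0493) were called, against 13.8% of all genes tested. By other fits PRE4 was the 1 gene called with the replicate block over all 4 strains, with robust and trended eBayes and without null set 3, RPN4 was the 1 called without dot4-1 set 1, and with separate arrays 5 were called (PRE3, PRE4, RPT4, RPN7 and RPN4). With the signs of the null arrays alone exchanged the count was 21. Apart from the paired fit, the share of all genes called under these settings is not given here.

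**Figure D4:**
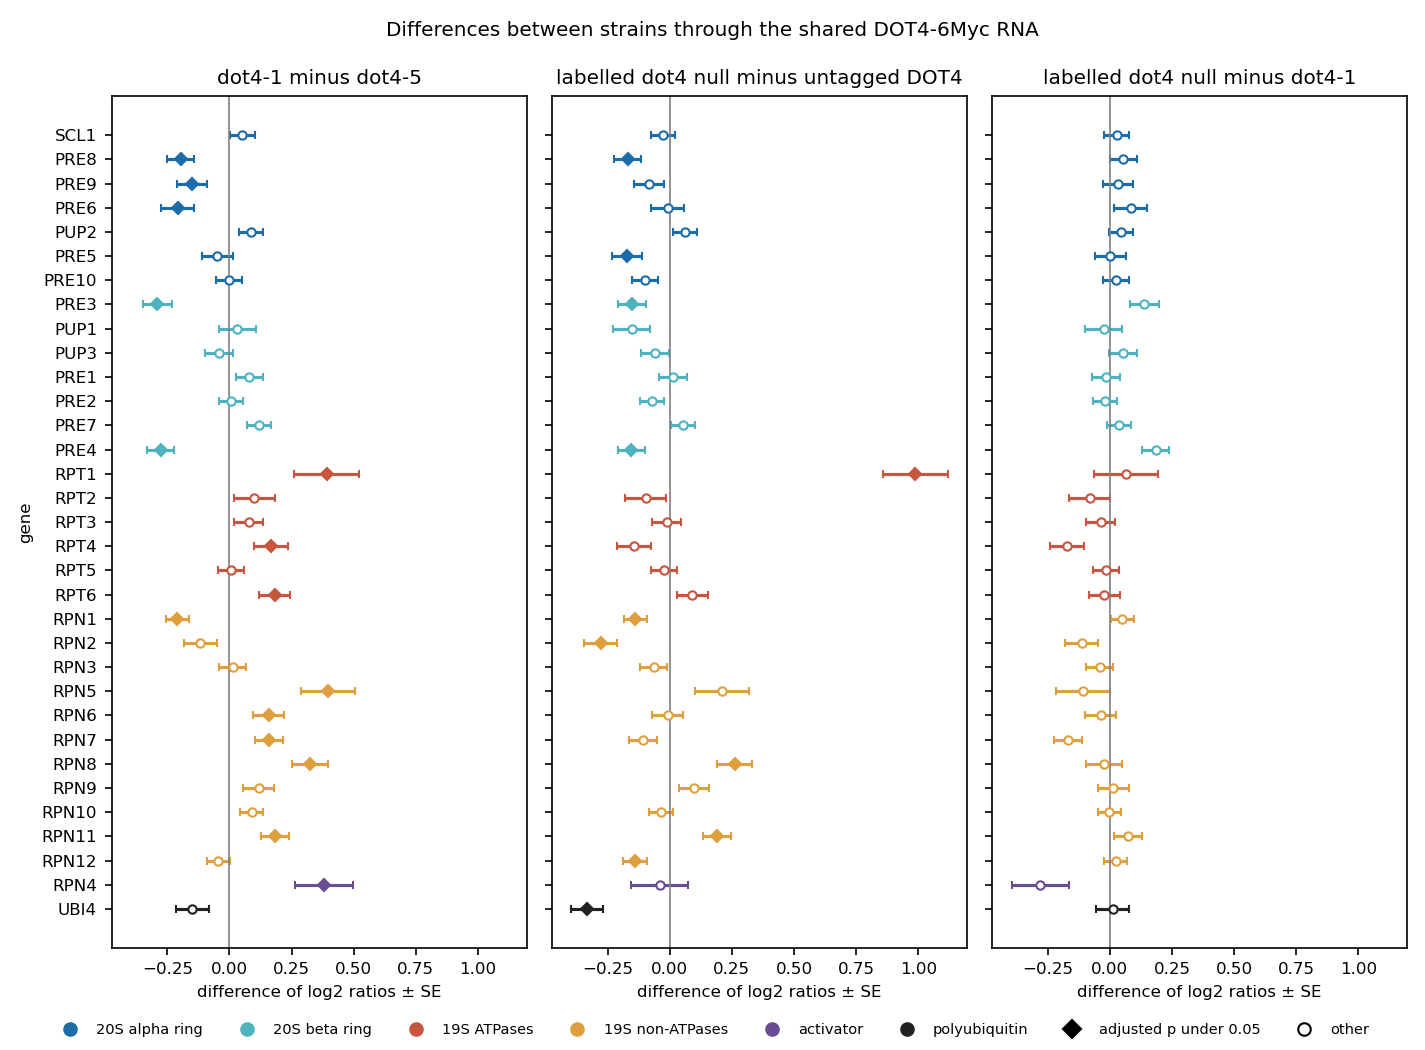
Differences of log2 ratios between strains (x axis, with SE) for the 33 genes (y axis) in dot4-1 minus dot4-5, the strain labelled null minus untagged DOT4 and the strain labelled null minus dot4-1. Filled diamonds have an adjusted p under 0.05: 15, 11 and 0 genes, with RPT1 at 0.99 in the middle panel.

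The other genes of the pathway were taken from 8 lists of 43 genes. Of the 43, 10 were higher and 14 lower in the strain labelled null (55.8% called, against 63.4% of all genes). In dot4-1 14 were higher and 19 lower (76.7%, against 73.4%), and in untagged DOT4 6 were higher and 4 lower (23.3%, against 25.8%). The counts by list below are of few genes and are read against these shares of all genes. In dot4-5 limma called 0, against 1.03% of all genes, and 0 had an unadjusted p under 0.05, against 269 of the 6195 genes tested. In each list some called genes were higher and others lower in at least 1 strain, except among the cap subunits RPN13 and SEM1. RPN13, a ubiquitin receptor, was 0.16 in the strain labelled null and 0.21 in dot4-1. SEM1, a small lid subunit, was 0.23 in dot4-1 and was called there alone.

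Of 9 assembly factors, 3 were higher and 2 lower in the strain labelled null (55.6% called) and 2 higher and 4 lower in dot4-1 (66.7%), both below the shares of all genes. IRC25, a chaperone of the alpha ring, was 0.40 ± 0.036 in the strain labelled null (adjusted p = 1.44e-06) and 0.45 ± 0.035 in dot4-1 (adjusted p = 3.82e-07). NAS6, a chaperone of the ATPase ring, was -0.27 in the strain labelled null and -0.32 in dot4-1. POC4, the partner of IRC25, was 0.24 ± 0.050 in untagged DOT4 (adjusted p = 0.00661), the 1 assembly factor called there, and -0.17 in dot4-1. Of the 4 alternative caps and bound factors, 1 was higher and 2 lower in the strain labelled null. In dot4-1 there were 1 higher and 1 lower, and in untagged DOT4 1 higher. UBP6, a deubiquitinase of the cap, was 0.16 in the strain labelled null and 0.25 in dot4-1, HUL5, a ubiquitin ligase of the cap, was -0.15 in the strain labelled null, BLM10, an alternative cap, was -0.17 in dot4-1, and ECM29, which links core and cap, was 0.13 in untagged DOT4.

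Of the 3 genes that encode ubiquitin fused to a ribosomal protein, RPL40A and RPL40B were -0.24 and -0.24 in dot4-1, both called, and -0.06 and -0.0099 in the strain labelled null, neither called. RPS31 was 0.17 in the strain labelled null and 0.13 in dot4-1, both called. In untagged DOT4, where UBI4 was 0.17, all 3 were lower, at -0.19 for RPL40A, -0.15 for RPL40B and -0.14 for RPS31. The fusion genes and UBI4 thus ran to opposite sides of 0 in that strain.

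**Figure D5:**
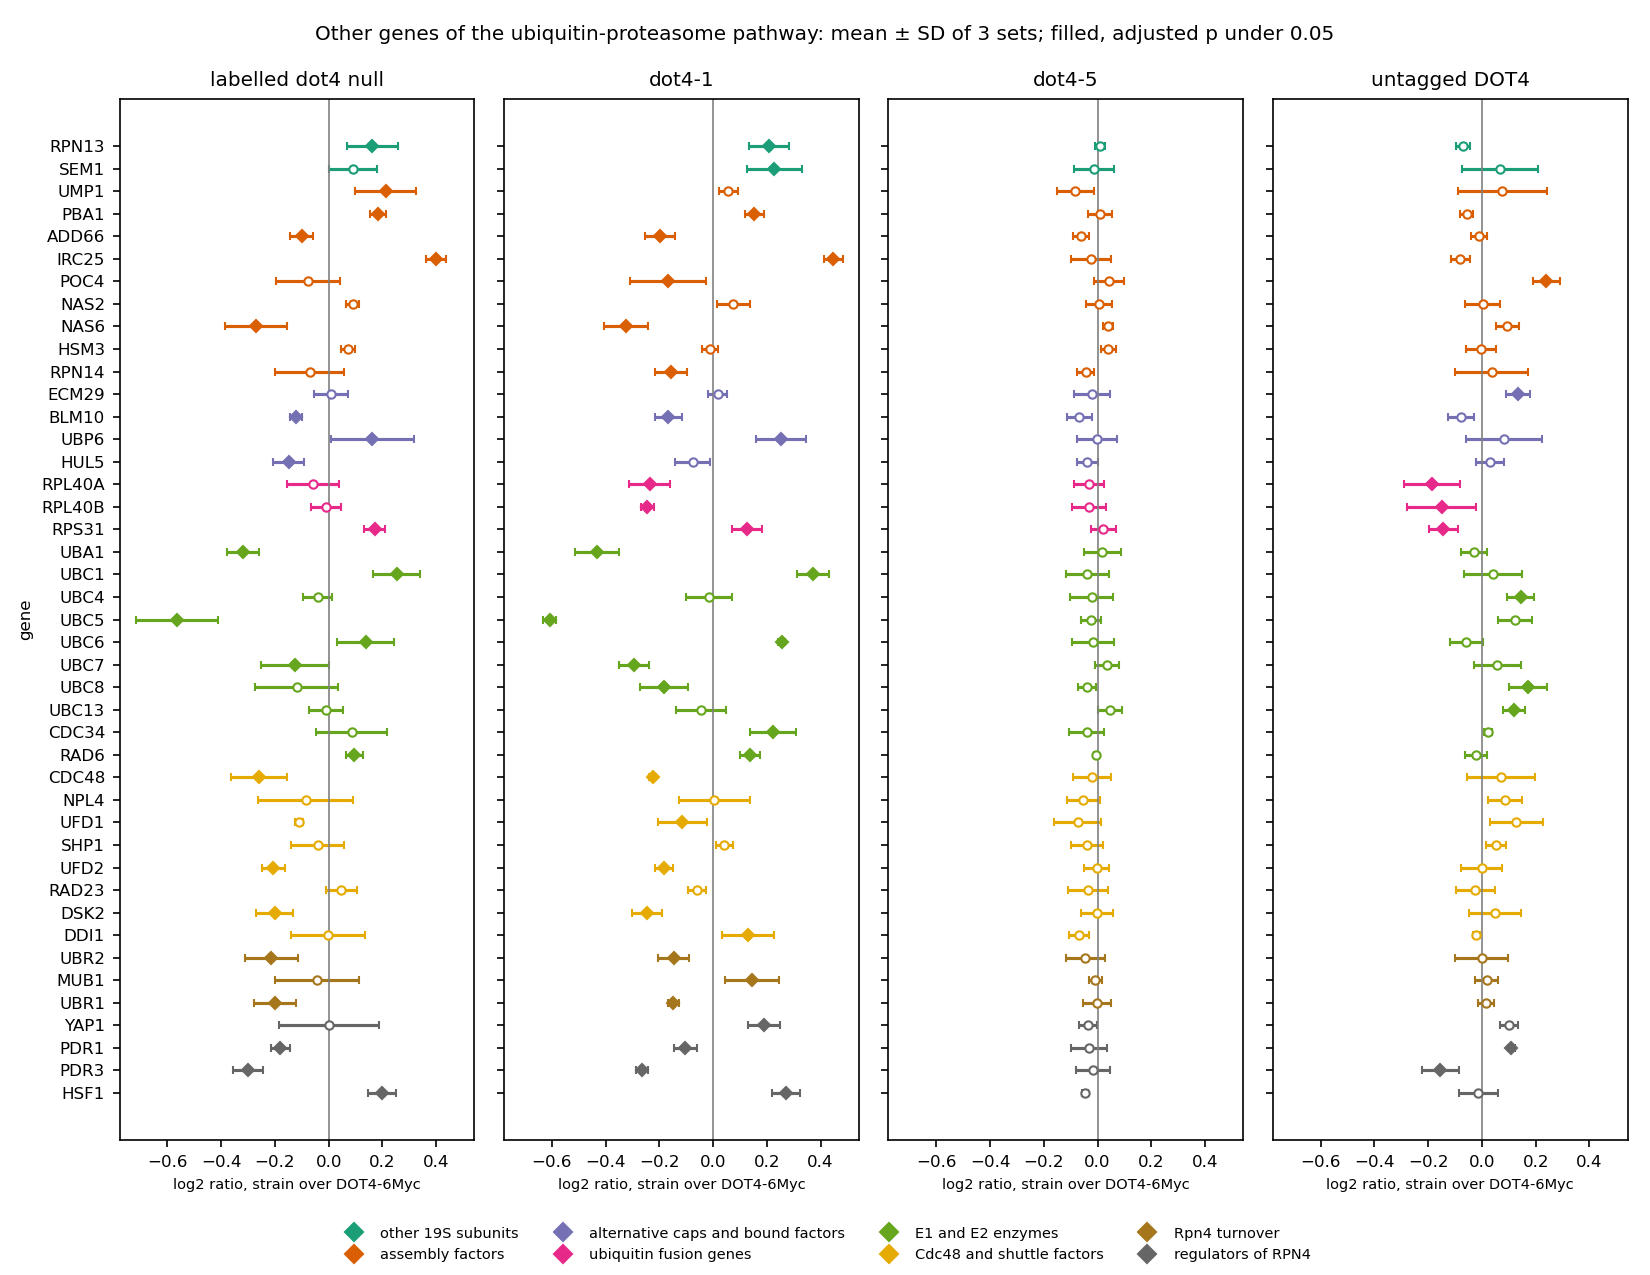
Mean log2 ratio and SD of 3 sets (x axis) for the 43 other genes of the ubiquitin and proteasome pathway (y axis, coloured by list) in the 4 strains. Filled diamonds have an adjusted p under 0.05: 24 genes in the strain labelled null, 33 in dot4-1, 0 in dot4-5 and 10 in untagged DOT4, with UBC5 lowest and IRC25 highest in the first and second panels.

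Of the 10 enzymes that activate or conjugate ubiquitin, 6 were called in the strain labelled null (3 higher, 3 lower), 8 in dot4-1 (4 higher, 4 lower) and 3 in untagged DOT4, all higher. These were 60%, 80% and 30% of the list, against 63.4%, 73.4% and 25.8% of all genes. UBC5, a conjugating enzyme of protein quality control, was -0.39, -0.64 and -0.66 in the strain labelled null, a mean of -0.56 ± 0.15 (adjusted p = 1.19e-06). In dot4-1 it was -0.59, -0.64 and -0.59, a mean of -0.61 ± 0.025 (adjusted p = 4.3e-07). Its close paralogue UBC4 was not called in either and was 0.14 in untagged DOT4, and signal shared between the paralogues cannot be told apart. UBA1, the activating enzyme, was -0.32 in the strain labelled null and -0.43 in dot4-1, and UBC8, which conjugates ubiquitin to gluconeogenic enzymes, was 0.17 in untagged DOT4.

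Of the 8 genes of Cdc48 and shuttle factors, 3 were lower in the strain labelled null (37.5% called, against 63.4% of all genes) and 4 lower and 1 higher in dot4-1 (62.5%, against 73.4%). CDC48, the segregase that extracts ubiquitinated proteins, was -0.26 in the strain labelled null and -0.23 in dot4-1, UFD2, a chain-elongating enzyme, was -0.21 in the strain labelled null, and DSK2, a shuttle receptor, was -0.25 in dot4-1. Of the 3 genes listed here under Rpn4 turnover, 2 were lower in the strain labelled null (66.7%), and 2 were lower and 1 higher in dot4-1 (100%). Whether UBR1, which is on this list, acts on Rpn4 was not examined. The ligase UBR2 was -0.21 in the strain labelled null and -0.15 in dot4-1, UBR1 was -0.20 and -0.15 in the same strains, and MUB1, the partner of UBR2, was 0.15 in dot4-1. Of 4 transcription factors with known sites upstream of RPN4, 3 were called in the strain labelled null (1 higher, 2 lower), 4 in dot4-1 (2 higher, 2 lower) and 2 in untagged DOT4 (1 higher, 1 lower), which was 75%, 100% and 50% of the list. PDR3 was -0.30 in the strain labelled null, -0.27 in dot4-1 and -0.16 in untagged DOT4, and HSF1 was 0.20 in the strain labelled null and 0.27 in dot4-1. PDR1 was -0.18 in the strain labelled null, -0.10 in dot4-1 and 0.11 in untagged DOT4, and YAP1 was 0.19 in dot4-1.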

How the data were processed

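The deposited table holds 1 value per array for 6205 open reading frames on 24 arrays. Per the labels, each array compared total RNA of a strain with that of DOT4-6Myc in 2 dyes. No deposited log2 ratio comes with a stated scale, and the log2 scale was taken from the values: log2 of 3 filled 19 cells, against a mean of 0.3 at neighbouring values. The sources used here do not give the array type, the background correction or any normalization. Of 148920 cells 83 were empty, and array medians ran from -0.092 to 0.2755.

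The median of each array was subtracted and the ratios were turned to strain over DOT4-6Myc against the order of the labels. That is a departure from following the labels, made because UBP10 was otherwise higher in the strain labelled null. It was applied to all strains. The dye component, the mean over both dye orientations, correlated at 0.823 to 0.906 between strains, as where the channels are divided in the same order. The correlation would be the same if the channel labels of the null arrays alone were exchanged, so it cannot tell that case apart. The dye orientations of a set were averaged. In R 4.3.3, limma 3.58.1 (lmFit, eBayes) was run on the 12 means, with 1 term per strain and 8 residual degrees of freedom. Two-sided p-values were adjusted by Benjamini-Hochberg over 6195 genes (10 had too few sets), at a threshold of 0.05, for 4 comparisons with DOT4-6Myc and 3 differences. On simulated data with 6176 genes, 100 genes were changed by 0.5 and 100 by 0.2, in dot4-1 alone. The fit recovered 95% of the changes of 0.5 and 54% of those of 0.2. In the data 73.4% of genes were called in dot4-1 and 1.03% in dot4-5, which shifts the adjusted threshold. The recovered shares are therefore not those of the comparisons here. A gene not called may still have a change of the smaller size.

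The genes and lists were chosen with earlier results of these data known. Set values are given for RPN4, UBI4, UBP10 and the highest and lowest gene of each group of subunits per comparison, and of other lists up to 2 called genes with the largest change; all 33 genes may be named, and further genes of the lists and the neighbours of RPT1 were chosen after their values were seen. RefSeq names (assembly R64) matched all 33 genes. No sequences were used here, so the planned count of promoter motifs was not run. Same-numbered sets of different strains correlated at -0.302 to 0.671 in their deviations, with 7 of 18 pairs over 0.1. All pairs of the strain labelled null with dot4-1 were over 0.1 (0.671, 0.509 and 0.317), so for that difference the paired fit is given beside the main one, and no other pair of strains met this. Alternatives changed the centring, scaling, dye, unit of replication, samples in the fit, replicate block, filter and spread, or left out sets. The paired fit of the strain labelled null with dot4-1, and an exchange of the signs of the null arrays alone, were added after seeing the data.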

Additional observations from a re-analysis of the deposited data

Results flagged for a closer look

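Genes are given here whose ratio differed between strains by limma's test of the difference itself, with an adjusted p under 0.05. These are the 26 called differences of the report, and each is a value with its explanation not tested.

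Between dot4-1 and dot4-5 the differences, dot4-1 minus dot4-5, were positive for 9 genes: RPN5 0.40, RPT1 0.39, RPN4 0.38, RPN8 0.32, RPN11 0.18, RPT6 0.18, RPT4 0.17, RPN7 0.16 and RPN6 0.16. They were negative for 6 genes: PRE3 -0.29, PRE4 -0.28, RPN1 -0.21, PRE6 -0.21, PRE8 -0.20 and PRE9 -0.15. The positive ones are cap subunits and the activator, and the negative ones are core subunits and the scaffold RPN1. This is a description and was not tested. Of all genes tested, 29.6% were called higher and 31.4% lower in this difference.

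For the strain labelled null against untagged DOT4, the differences (null minus untagged) were positive for RPT1 0.99, RPN8 0.26 and RPN11 0.19. They were negative for 8 genes: UBI4 -0.33, RPN2 -0.28, PRE5 -0.17, PRE8 -0.17, PRE4 -0.16, PRE3 -0.15, RPN12 -0.14 and RPN1 -0.14. RPT1 lay on opposite sides of 0 on all 6 arrays of each strain, above it in the strain labelled null and below it in untagged DOT4.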

How the results depend on the processing

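Counts of called genes moved more than single directions. The share of all genes called under each setting is not given beside these counts. A changed count is therefore not read as particular to these genes. In the strain labelled null 14 became 8 without centring, 7 with scaled arrays, 4 with the strain fitted alone and 8 to 15 with a set left out. In dot4-1 17 became 8 with scaled arrays and 12 to 16 with a set left out. In dot4-5 0 became 1 with the strain in Cy5. In untagged DOT4 3 became 6 with scaled arrays, 6 in Cy3, 7 with separate arrays and 2 to 3 with a set left out. In dot4-1 minus dot4-5 15 became 7 without centring, 5 with scaled arrays and 7 to 15 with a set left out. In the strain labelled null minus dot4-1 0 became 5 with separate arrays, 1 with robust and trended eBayes, 1 with the replicate block, 2 with these strains alone and the replicate block, 0 to 1 with a set left out and 21 with the null signs exchanged. The fit of these strains alone with the block and the exchange were chosen after seeing the data. In the strain labelled null minus untagged DOT4 11 became 5 without centring, 3 with scaled arrays, 4 in Cy3, 6 with the strains alone and 7 to 12 with a set left out. With the replicate block the counts were 14, 17, 0, 3, 14, 1 and 11 in the order of the comparisons here. The labels give set numbers and state no pairing between strains. The numbers were treated as pairs only for the strain labelled null with dot4-1, from the correlation of their deviations, and elsewhere as shared numbers. A fit of a strain alone has fewer samples by construction, and the cause of the other changes was not tested.

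Signs turned for PUP2 in the strain labelled null (-0.010 in Cy5), PRE7 in dot4-1 (-0.053 in Cy5), RPN4 in the strain labelled null (-0.029 in Cy3, -0.051 without set 2, -0.035 without set 3, 0.14 without set 1) and in untagged DOT4 (-0.021 without centring), UBI4 in dot4-5 (0.032 in Cy3, -0.081 to 0.038 with a set left out), and RPN4 in null minus untagged (0.058 without centring, -0.11 to 0.078 with a set left out, the highest without null set 1). Of these only PUP2 and PRE7 were called. With all arrays turned together, calls held in all alternatives for 4 of 14 genes in the strain labelled null, 7 of 17 in dot4-1, 1 of 3 in untagged DOT4, 2 of 15 in dot4-1 minus dot4-5 and 2 of 11 in the strain labelled null minus untagged DOT4, and with the null signs alone exchanged for 0 of these 11.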
